A study of Bos taurus with 20 samples.

Results

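The 40 genes described here encode complement and coagulation factors that the liver secretes into plasma, among 20011 genes measured in cow liver. They were chosen by name, as the genes of a fixed list whose symbol the deposited workbook pairs with a probe set. No measured value entered this rule, but the list was set with earlier results of these data known. All 40 were found, each with 1 probe set. Complement is a cascade of plasma proteases that ends in a pore in the membrane of a microbe. It starts through the classical, the lectin or the alternative pathway, and each of these cleaves C3, the central component. Coagulation is a second cascade, in which thrombin turns fibrinogen into fibrin, anticoagulant proteins hold the proteases in check, and plasmin dissolves the clot. Hepatocytes are the main source of most of these proteins, whereas properdin (CFP) comes mainly from leukocytes and factor D (CFD, also called adipsin) is well known as a product of fat cells. Around calving the liver of a dairy cow also mounts an acute phase response, during which haptoglobin, C3, factor B and fibrinogen are textbook examples of proteins whose output can increase.

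Liver RNA of 10 multiparous Holstein-Friesian cows was measured on 1-colour Affymetrix bovine gene arrays, once before and once after calving, which gave 20 arrays. During the final 4 weeks before calving the ration held 0.16% phosphorus of dry matter in the LP group (low phosphorus, cows A to E) or 0.35% in the AP group (adequate phosphorus, cows F to J), with n = 5 arrays per group. Intake was restricted for both groups in that period, urea in the LP concentrate made the nitrogen of the rations equal, and after calving every cow had the same lactation ration. No cow was without the feed restriction, and the labels do not give the day of each biopsy, the parity or the health of single cows. Signals are on the log2 scale, on which 1 unit is a 2-fold change. Levels were not compared between genes, since each probe set has its own brightness. Per-array values are listed in the order of the cows' letters. A gene passed when its p-value from limma, a linear model with a moderated variance, was below 0.05 after Benjamini-Hochberg adjustment over all 20011 genes.

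The tissue label was checked on 10 hepatocyte markers fixed for this purpose. All 10 were measured, and their mean per array lay between 11.98 and 12.3 on 19 arrays. The postpartum array of cow C (LP) stood apart. Its hepatocyte markers averaged 11.81, the lowest of the 20 arrays. Its adipocyte markers averaged 8.89 against 4.39 to 5.01 on the other 19 arrays, and its fibroblast markers, at 11.80, and its endothelial markers, at 8.59, were the highest of the 20 arrays. It held the lowest value of 34 of the 40 members, 38 members were below their own mean there, and their median deviation from that mean was −0.50, while the median over all genes was −0.06. C7, a terminal complement component that stromal cells also make, was highest there, at 10.42. Skeletal muscle markers averaged 6.78 there and 6.93 on the antepartum array of cow F (AP), against 5.01 to 5.68 on the others. On that array of cow F the fibroblast markers averaged 8.43, the highest of its group. In a bulk sample, fewer cells of a type and less RNA per cell cannot be told apart. Where the postpartum array of cow C moved a difference across calving, its direction or a count by more than 1.5 times, the value without it stands beside the value with it.

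**Figure D1:**
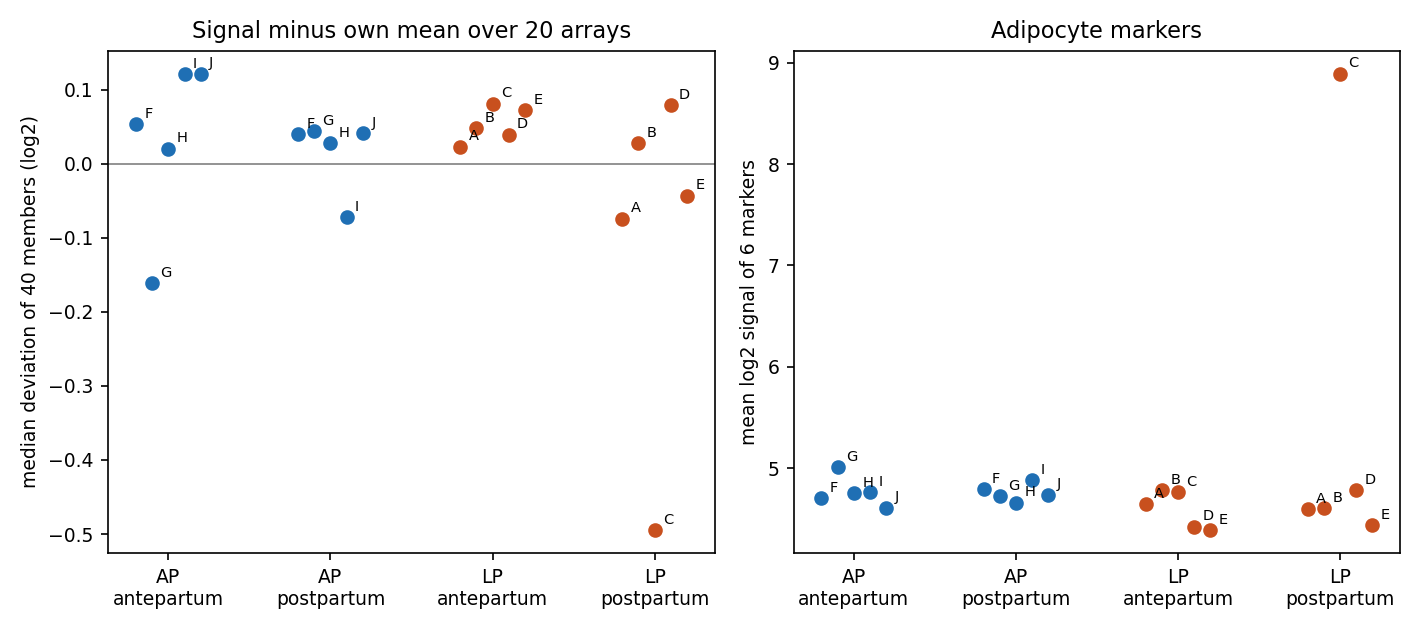
Left, the median over the 40 members of each array's log2 signal minus that gene's mean over 20 arrays, and right, the mean log2 signal of 6 adipocyte markers, with 1 point per array, labelled by cow. The postpartum array of cow C lies at −0.50 on the left and at 8.89 on the right, away from all other arrays.

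Across calving, over both diets, 1 of the 40 members passed. CFD fell. No member rose, while 0.7% of all genes were higher and 0.8% were lower at this threshold. The gene that encodes haptoglobin (HP), which is not one of the 40, rose by 3.69 (adjusted p = 9.5e-05, limma) in the same livers and was higher in 10 of 10 cows. Among the members 28 of 40 were lower and 12 higher postpartum by sign alone (70% lower against 53.9% of all genes), and the median log2 difference was −0.08, against −0.01 over all genes. At an unadjusted p below 0.05 there were 8 members, all of them lower, where 11.9% of all genes had such a p. These were CFD, SERPINC1, VTN, F13B, PROC, F9, F10 and CPB2. Of the 10 hepatocyte markers, 8 were lower and 2 higher across calving, with a median of −0.17, and 4 passed lower and 1 higher.

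Without the postpartum array of cow C the lower members numbered 21 of 40, against 54.1% of all genes, and their median was −0.02. CFD still passed, as the only member, and 2.73% of all genes did. At an unadjusted p below 0.05 there were then 11 members (13.7% of all genes): the same 8, and C2, MASP2 and F11, which were higher. With the animal as a block, CFD again was the only member to pass, where 1.9% of all genes passed. The standard error of a log2 difference for time over both diets had a median of 0.099 over all genes. In simulated data for this comparison, with independent noise on every array, 95% of genes changed 2-fold and 79% of genes changed 1.5-fold were recovered.

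**Figure D2:**
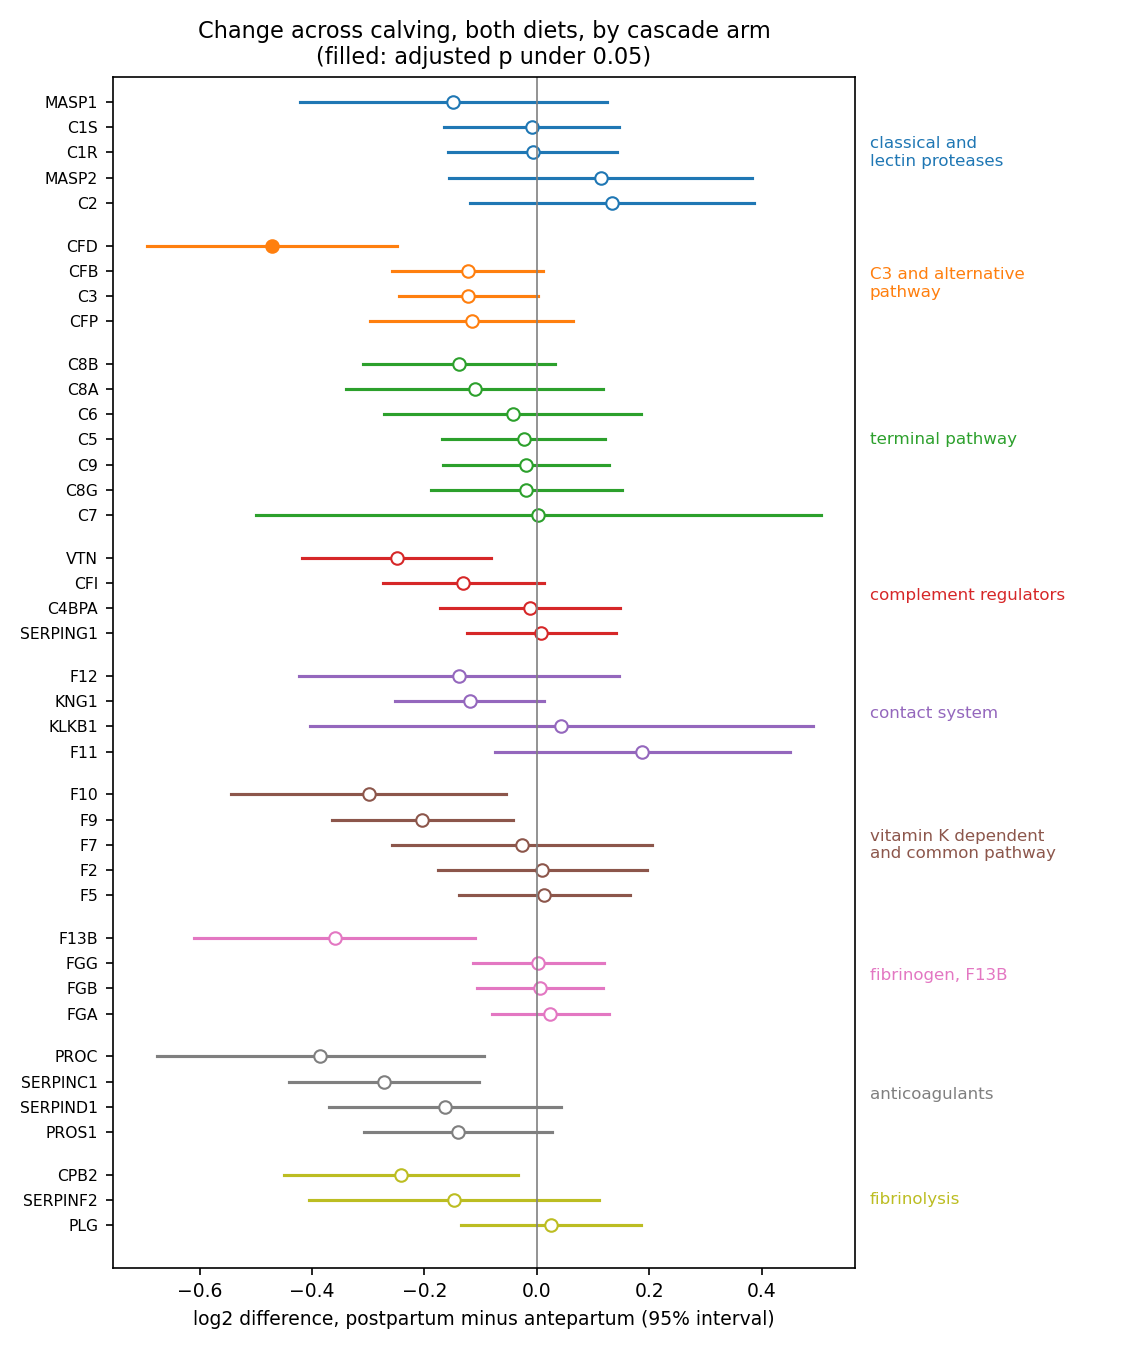
Log2 difference, postpartum minus antepartum over both diets, of each of the 40 members, grouped and coloured by arm of the cascades, with its 95% confidence interval from limma over 20 arrays. The filled point, CFD at −0.47, is the member that passed, and the fibrinogen chains have the narrowest intervals.

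Factor D (CFD) is the protease that cleaves factor B once it is bound to C3b, and so completes the alternative pathway's C3 convertase. In AP cows its signal was 9.07, 8.64, 8.67, 9.19 and 9.11 antepartum and 8.69, 8.39, 8.93, 8.76 and 8.33 postpartum. In LP cows it was 9.28, 9.74, 9.60, 9.27 and 9.32 antepartum and 8.97, 8.97, 8.46, 9.03 and 8.62 postpartum. Every LP value before calving lay above every LP value after it and above every AP value before calving, whereas the AP times overlapped. Over both diets CFD fell by 0.47 on the log2 scale (SE 0.107, 95% confidence interval −0.69 to −0.25, adjusted p = 0.0269, limma), and it was lower in 9 of 10 cows, cow H being the exception. The difference was −0.63 in LP and −0.31 in AP, and the test of the difference between them gave −0.32 (SE 0.215, unadjusted p = 0.154, adjusted p = 1.00, limma). The call was lost in 5 of the 10 analyses that each left out 1 cow (adjusted p 0.0528 to 0.103), without the antepartum array of cow F (adjusted p = 0.0581), and with the authors' deposited paired p-value (0.138 after adjustment).

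All 6 adipocyte markers measured had a positive difference across calving over both diets, and 0 passed. Positive differences numbered 4 of 6 without the array of cow C, with a median of 0.01, and 3 of 6 in AP. On the array of cow C, where these markers were highest, CFD was at 8.46, the lowest of its group. CFD was not among the 34 of 40 members that had their lowest value of all arrays there. It was lower in AP cows J and G postpartum, at 8.33 and 8.39. Macrophage markers were lower postpartum for 11 of 11 genes (median −0.38), of which C1QC passed. The part of the adipocyte and macrophage markers in the CFD result was not tested.

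Properdin (CFP) stabilises the alternative convertase. It read 6.48, 6.29, 6.16, 6.11 and 6.20 before calving and 6.12, 6.50, 6.13, 6.36 and 6.07 after it in AP. The LP values were 6.42, 6.50, 6.73, 6.87 and 6.83 before and 6.11, 6.54, 6.55, 6.66 and 6.39 after. All 4 groups overlapped with their neighbours, and the difference across calving was −0.12 (SE 0.0869, adjusted p = 0.701, limma).

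C3, the component on which all pathways meet, was at 13.47, 13.34, 13.42, 13.52 and 13.49 antepartum and 13.40, 13.45, 13.31, 13.30 and 13.42 postpartum in AP. In LP it was at 13.41, 13.50, 13.49, 13.44 and 13.39 antepartum and 13.28, 13.35, 13.01, 13.42 and 13.29 postpartum. The postpartum values lay slightly lower in 9 of 10 cows, but the groups overlapped within each diet. The log2 difference was −0.12 (95% confidence interval −0.25 to 0.0019, adjusted p = 0.431, limma) and −0.09 without the array of cow C. For factor B (CFB), which carries the protease of the alternative convertase, the difference was also −0.12 (adjusted p = 0.481, limma), with lower values in 9 of 10 cows. All 4 genes of C3 and the alternative pathway had a negative difference, with a median of −0.12.

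The 3 chains of fibrinogen, the precursor of fibrin, were among the least variable of the members. The alpha chain (FGA) read 13.65, 13.62, 13.62, 13.63 and 13.71 antepartum and 13.68, 13.70, 13.71, 13.64 and 13.73 postpartum in AP. Its LP signals were 13.66, 13.64, 13.63, 13.69 and 13.68 before and 13.59, 13.62, 13.61, 13.74 and 13.75 after calving. FGA was thus slightly higher after calving in every AP cow, whereas among LP cows D and E were higher and A, B and C lower.

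The beta chain (FGB) was at 13.36, 13.29, 13.31, 13.32 and 13.38 before calving and at 13.37, 13.38, 13.39, 13.33 and 13.45 after it in AP. In LP cows FGB was at 13.35, 13.37, 13.35, 13.38 and 13.44 before and at 13.24, 13.26, 13.28, 13.36 and 13.54 after. All 5 AP cows and LP cow E were higher after calving, and the other LP cows lower. For the gamma chain (FGG), AP cows had 13.30, 13.29, 13.41, 13.33 and 13.42 before and 13.38, 13.39, 13.38, 13.33 and 13.46 after calving. LP cows had FGG signals of 13.38, 13.29, 13.35, 13.39 and 13.37 before and 13.20, 13.25, 13.25, 13.38 and 13.52 after. The LP spread after calving was wider than before it for each chain, with SDs of 0.076 for FGA, 0.125 for FGB and 0.132 for FGG against 0.025, 0.038 and 0.038 (n = 5). The test of the difference between the diets in the change across calving gave −0.04 for FGA, −0.10 for FGB and −0.08 for FGG. None had an unadjusted p below 0.05 (0.682, 0.376 and 0.500, limma).

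Over both diets the log2 difference was 0.02 for FGA (95% confidence interval −0.08 to 0.13), 0.006 for FGB (−0.11 to 0.12) and 0.003 for FGG (−0.11 to 0.12), with adjusted p from 0.925 to 0.991 (limma). They were 0.03, 0.01 and 0.01 without the array of cow C. These intervals end below 0.13, while HP rose by 3.69 in the same livers. FGA has the brightest probe set of the 40, with a mean of 13.66, and the highest signal of any probe set was between 13.98 and 14.24 on each array. How far the top of the array's range limits a change in such bright probe sets was not tested.

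The cows' changes in the 3 chains moved together. Over 10 cows the change from antepartum to postpartum in FGA and in FGB had Pearson's r = 0.872 and Spearman's rho = 0.855 (permutation test, adjusted over 8 pairs of genes, p = 0.00221 and 0.0157), and r was 0.804 without cows A and H, the farthest from the median. FGB and FGG gave r = 0.807 and rho = 0.830 (permutation test, adjusted p = 0.00826 and 0.0157), with r = 0.702 without cows A and B. For FGA and FGG, r was 0.774 and rho 0.648 (permutation test, adjusted p = 0.0147 and 0.0566). In RefSeq's annotation FGA lies between FGG and FGB on chromosome 17, with no protein-coding gene between it and either of them. The change in FGB also went with that in HP across cows, with r = 0.743 and rho = 0.745 (permutation test, adjusted p = 0.0163 and 0.0225), and r = 0.640 without cows A and B. For C3 and HP, r was 0.584 and rho 0.770 (permutation test, adjusted p = 0.0756 and 0.0225), and r was 0.331 without cows C and G. The 5 cows per diet are too few for a value within a diet, and genes on 1 pair of arrays share those arrays' normalization and tissue makeup.

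**Figure D3:**
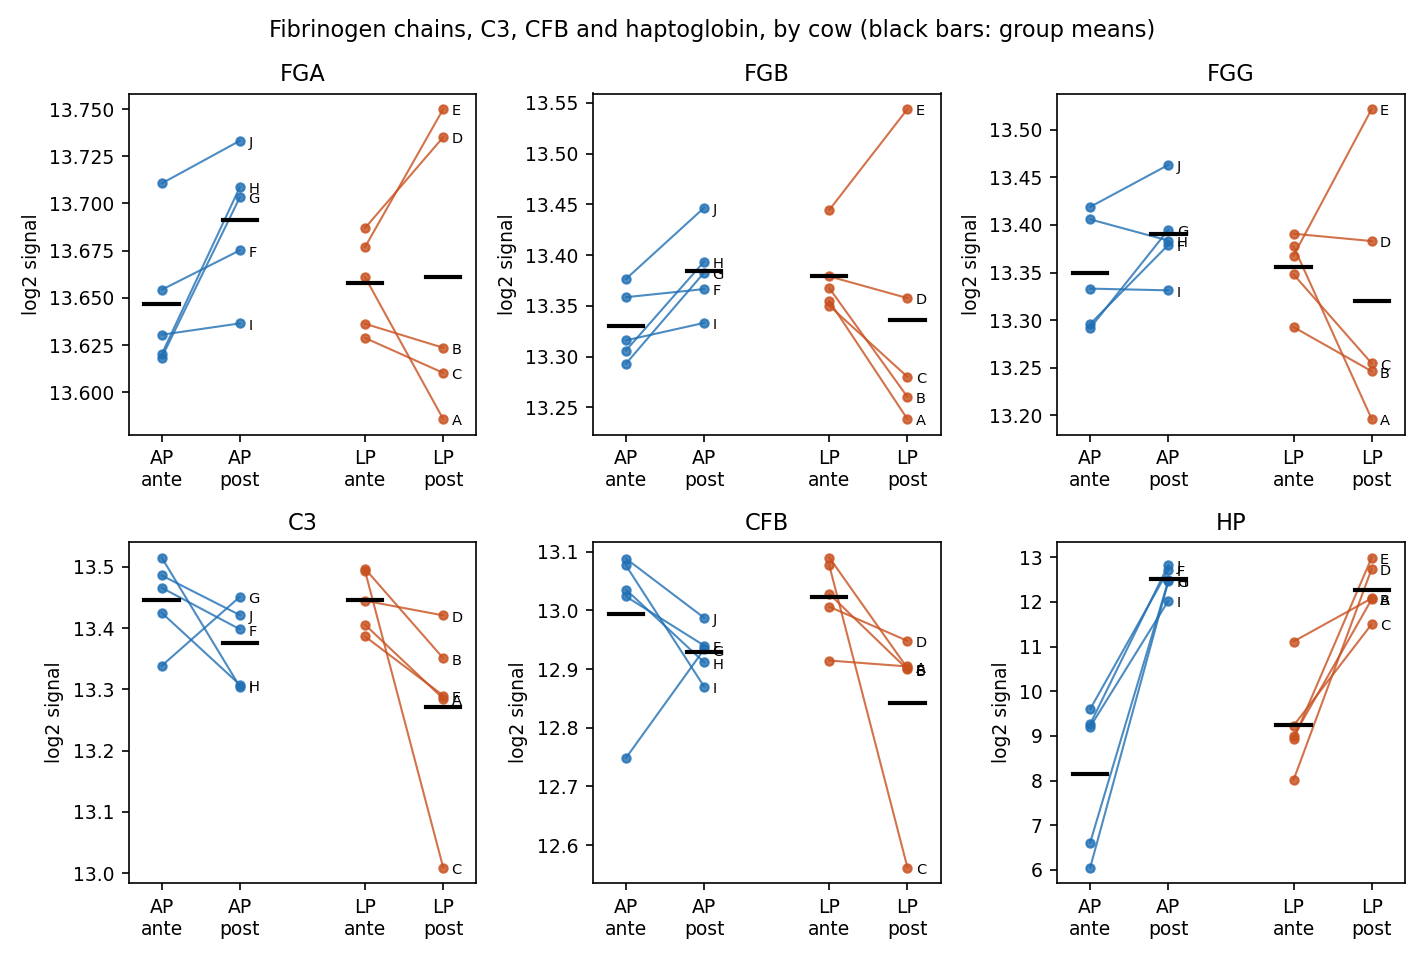
Log2 signal of the fibrinogen chains, C3, CFB and HP by cow, with 1 line per cow from antepartum to postpartum, AP in blue and LP in orange, and black bars for the group means; each panel has its own axis, which does not start at 0. The panels for fibrinogen, C3 and CFB span less than 1 log2 unit, whereas HP rises from between 6.05 and 11.11 to between 11.50 and 13.00.

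Factor XIII's B subunit (F13B) carries the transglutaminase that crosslinks fibrin. In AP its signal was 10.91, 11.09, 11.34, 11.27 and 11.27 before and 10.66, 11.14, 10.77, 10.72 and 10.96 after calving. The LP cows had 10.93, 10.96, 10.95, 11.05 and 11.26 before and 10.40, 10.94, 9.89, 10.93 and 11.00 after. The value after calving was lower in 9 of 10 cows and the groups overlapped in both diets. The log2 difference was −0.36 (SE 0.120, adjusted p = 0.168, limma) and −0.27 without the array of cow C.

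All 4 anticoagulants had a negative difference across calving, with a median of −0.22 (−0.17 for the hepatocyte markers), and 0 passed. Antithrombin (SERPINC1), the main inhibitor of thrombin and factor Xa, was at 12.24, 12.19, 12.34, 12.36 and 12.34 before and at 12.17, 12.21, 12.13, 11.98 and 12.04 after calving in AP. LP cows had SERPINC1 signals of 12.25, 12.26, 12.30, 12.39 and 12.31 before and 12.12, 12.22, 11.48, 12.14 and 11.77 after. In LP no postpartum value reached the lowest antepartum one, and in AP only cow G's values overlapped the other time. The difference was −0.27 (SE 0.0813, adjusted p = 0.109, limma), lower in 9 of 10 cows, and −0.21 without the array of cow C (adjusted p = 0.0912, limma). Protein C (PROC), which inactivates factors Va and VIIIa once thrombin has activated it, gave −0.39 (SE 0.140, adjusted p = 0.219, limma). PROC was at 10.28 to 10.42 in 4 LP cows postpartum and at 9.22 in cow C, and its difference was −0.27 without that array. All 4 were negative without it too, with a median of −0.16. The cofactor of activated protein C, protein S (PROS1), gave −0.14, and heparin cofactor II (SERPIND1), a thrombin inhibitor, gave −0.16.

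Vitronectin (VTN), a plasma and matrix protein that keeps the terminal complex out of membranes and also stabilises the plasminogen activator inhibitor, was lower in 10 of 10 cows. Its AP signals were 13.05, 12.94, 13.08, 13.13 and 13.06 antepartum and 12.92, 12.86, 12.72, 12.91 and 12.72 postpartum, and these groups did not overlap. In LP the signals were 13.08, 13.10, 13.10, 13.09 and 12.70 antepartum and 12.81, 13.04, 12.42, 12.90 and 12.51 postpartum, where the low antepartum value of cow E made the groups overlap. The log2 difference of VTN was −0.25 (SE 0.0807, adjusted p = 0.149, limma) and −0.21 without the array of cow C.

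The other regulators of complement showed smaller differences. C1 inhibitor (SERPING1), which blocks C1r, C1s, the MASPs and plasma kallikrein, read 12.47, 12.57, 12.39, 12.51 and 12.48 before and 12.57, 12.58, 12.46, 12.67 and 12.68 after calving in AP. In LP, SERPING1 was at 12.61, 12.60, 12.52, 12.38 and 12.44 before and at 12.50, 12.38, 12.14, 12.52 and 12.54 after. It was higher after calving in 5 of 5 AP cows and lower in 3 of 5 LP cows, with a difference of 0.008 over both diets and 0.04 without the array of cow C. The alpha chain of C4b-binding protein (C4BPA), a cofactor for the breakdown of C4b, was at 12.10, 11.88, 12.14, 12.21 and 12.23 before and at 12.17, 12.25, 12.36, 12.06 and 12.30 after calving in AP. C4BPA signals in LP were 12.05, 12.11, 12.27, 12.07 and 12.32 before and 11.94, 11.98, 11.72, 12.20 and 12.29 after. It was lower in 1 of 5 AP cows and in 4 of 5 LP cows, with a difference of −0.01 over both diets and 0.03 without the array of cow C. Factor I (CFI), the protease that cleaves C3b and C4b, gave −0.13 (adjusted p = 0.487, limma) and −0.09 without that array.

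**Figure D4:**
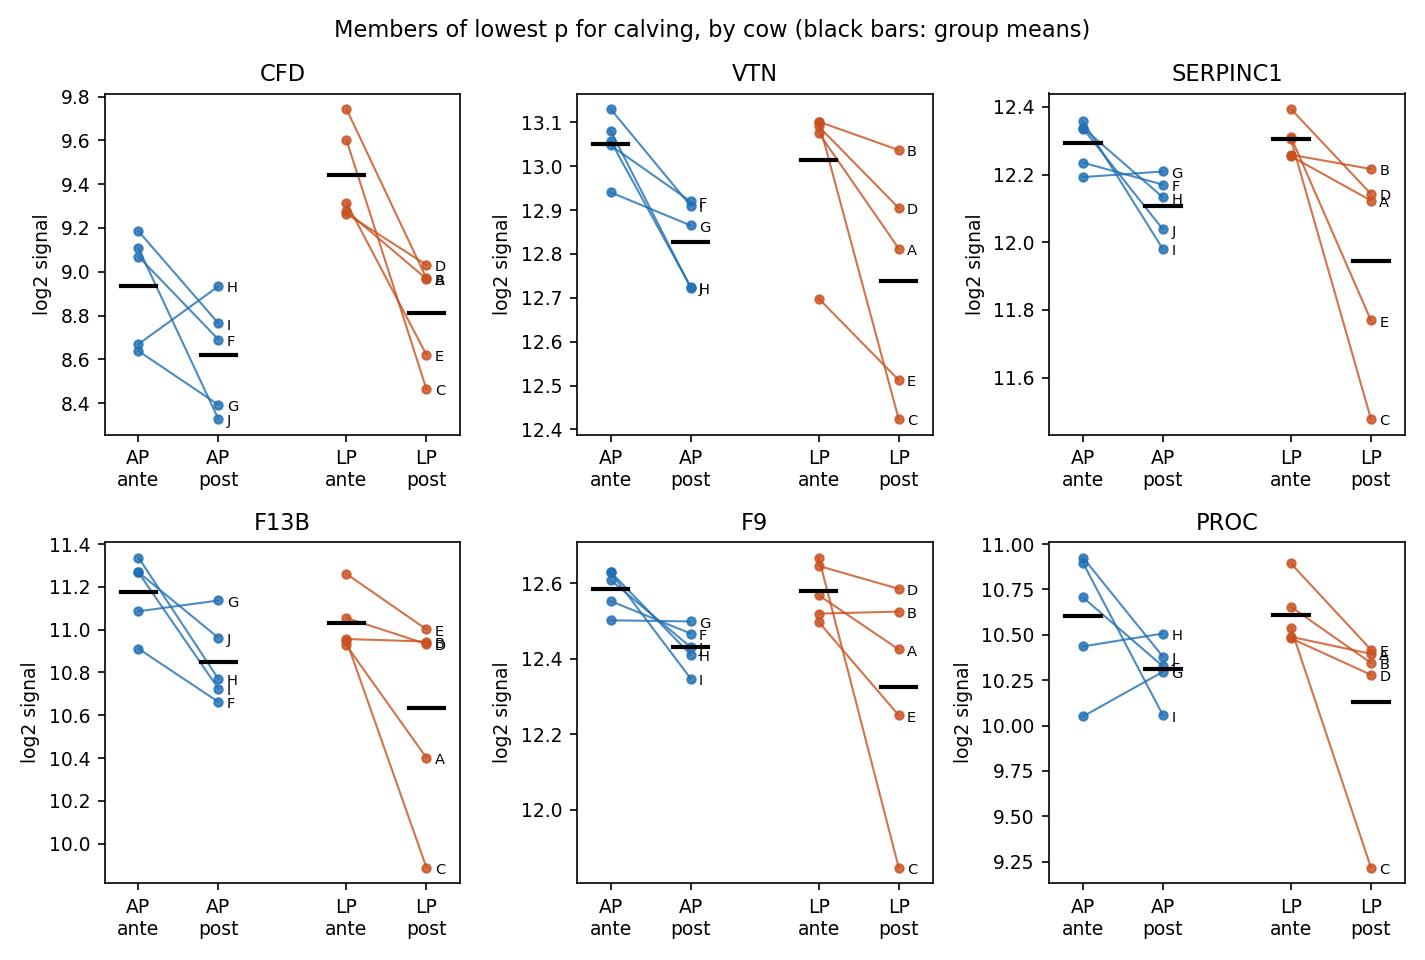
Log2 signal of CFD, VTN, SERPINC1, F13B, F9 and PROC by cow, with 1 line per cow from antepartum to postpartum, AP in blue and LP in orange, and black bars for the group means; each panel has its own axis, which does not start at 0. Most lines go down, and cow C has the lowest postpartum value of its group in every panel.

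Among the vitamin K dependent and common pathway factors, factor IX (F9), the protease that haemophilia B lacks, had the lowest p. Its AP signals were 12.55, 12.50, 12.63, 12.63 and 12.61 before and 12.47, 12.50, 12.41, 12.35 and 12.43 after calving, and these groups did not overlap, although both values of cow G round to 12.50. In LP, F9 was at 12.57, 12.52, 12.67, 12.65 and 12.50 before and at 12.42, 12.53, 11.85, 12.59 and 12.25 after, with overlap. The difference was −0.20 (SE 0.0774, adjusted p = 0.249, limma), lower in 9 of 10 cows. Factor X (F10), which activates prothrombin, gave −0.30 (adjusted p = 0.271, limma). Factor VII (F7), which lies next to F10 in RefSeq's annotation of chromosome 12, gave −0.03. Prothrombin (F2) and factor V (F5), the cofactor of activated factor X, gave 0.01 each. Without the array of cow C these 3 differences were 0.07 for F7, 0.07 for F2 and 0.05 for F5, that of F10 was −0.22, and the median of the 5 genes moved from −0.03 to 0.05.

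In the fibrinolysis group, carboxypeptidase B2 (CPB2), which removes the lysines on fibrin that plasminogen binds, was at 11.63, 11.49, 11.46, 11.58 and 11.70 before and at 11.52, 11.66, 11.36, 11.31 and 11.53 after calving in AP. The CPB2 signals in LP were 11.67, 11.39, 11.66, 11.71 and 11.75 before and 11.35, 11.48, 10.58, 11.59 and 11.25 after. Times overlapped in both diets, 8 of 10 cows were lower after calving, and the difference was −0.24 (SE 0.10, adjusted p = 0.312, limma) and −0.16 without the array of cow C. Plasminogen (PLG) gave 0.03 and the plasmin inhibitor SERPINF2 gave −0.15, against 0.08 and −0.06 without that array.

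The contact system starts coagulation on negatively charged surfaces and releases bradykinin. High-molecular-weight kininogen's gene (KNG1) read 12.93, 12.99, 12.97, 12.90 and 12.87 antepartum and 12.88, 13.04, 12.88, 12.89 and 12.72 postpartum in AP. In LP, KNG1 was at 12.78, 12.83, 13.04, 13.02 and 12.90 antepartum and at 12.75, 12.74, 12.53, 12.94 and 12.68 postpartum. The groups overlapped, the difference was −0.12 (adjusted p = 0.493, limma), and 9 of 10 cows were lower. Factor XII (F12) gave −0.14, and −0.02 without the array of cow C, where its change was −1.50. Plasma prekallikrein (KLKB1) gave 0.04 with that array and 0.20 without it. Factor XI (F11) gave 0.19. F11 and KLKB1 are neighbours in RefSeq's annotation of chromosome 27. F11 was higher after calving in 8 of 10 cows. Its postpartum LP values ran from 9.32 in cow C to 10.81, and without that array its difference was 0.30 (adjusted p = 0.0514, limma).

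Of the 5 proteases of the classical and lectin pathways 2 were higher and 3 lower by sign, with a median of −0.007. With the array of cow C left out 4 were higher, with a median of 0.05, and in AP 4 were higher, with a median of 0.06. The mannan-binding lectin protease MASP1 was at 9.81, 9.92, 10.05, 10.01 and 9.98 before and at 9.88, 9.90, 9.99, 9.69 and 10.05 after calving in AP. In LP, MASP1 was at 9.68, 9.91, 10.13, 9.81 and 9.93 before and at 9.71, 9.76, 8.65, 10.07 and 10.04 after. The value of 8.65, from cow C, lay more than 1 log2 unit below all others, and the difference of −0.15 (adjusted p = 0.774, limma) was −0.02 without that array. MASP2 gave 0.11 and C2, which supplies the protease of the classical convertase, gave 0.13. Both gave 0.22 without that array (adjusted p 0.302 for MASP2 and 0.312 for C2, limma). The proteases of the C1 complex gave −0.007 (C1R) and −0.009 (C1S), and 0.05 and 0.04 without it. These adjacent genes had r = 0.796 and rho = 0.370 between their changes over 10 cows (permutation test, adjusted p = 0.0163 and 0.296), but r was −0.153 without cows C and G, so that the relation rests on those cows.

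In the terminal pathway, whose products C5 to C9 assemble the membrane pore, 6 of 7 genes had a negative difference, with a median of −0.02. This count was 3 of 7 without the array of cow C, with a median of 0.01, and 3 of 7 in AP. The beta chain of C8 (C8B) was at 12.27, 11.97, 12.32, 12.39 and 12.33 before and at 12.30, 12.03, 12.23, 12.09 and 12.18 after calving in AP. C8B signals in LP were 12.35, 12.30, 12.45, 12.22 and 12.23 before and 12.34, 12.31, 11.70, 12.25 and 12.02 after. All groups overlapped, and the difference was −0.14 (adjusted p = 0.574, limma), or −0.08 without that array. The alpha chain (C8A), whose gene is the neighbour of C8B, gave −0.11 with the array and −0.02 without it. The changes of the 2 chains had r = 0.950 and rho = 0.818 over 10 cows (permutation test, adjusted p = 0.00056 and 0.0157), with r = 0.855 without cows C and G. C8G gave −0.02, C5 −0.02, C6 −0.04 and C9 −0.02, and without the array these were 0.03, 0.01, 0.05 and 0.03. C7 gave 0.003 with the widest interval of the 40 (−0.50 to 0.51), and −0.22 without the array of cow C, where its signal was 10.42 against 7.68 to 9.00 elsewhere. The changes in C3 and CFB had r = 0.948 and rho = 0.758 (permutation test, adjusted p = 0.00221 and 0.0225) and r = 0.557 without cows C and G.

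Within a diet no member passed across calving. In AP 22 of 40 members were lower, against 55.8% of all genes, with a median of −0.02, and 0 had an unadjusted p below 0.05 (9.2% of all genes, with 0.415% past the adjusted threshold). Without the array of cow C, which enters the shared estimate of the spread, 5 members did in AP (11.8% of all genes), of which CFD, VTN, F13B and PROC were lower and F11 higher. Fitted on the AP arrays alone, 6 did (14% of all genes), of which VTN, SERPINC1, F13B and C7 were lower and F11 and MASP2 higher. In LP 35 of 40 were lower, against 50.9% of all genes, with a median of −0.17, and 9 had an unadjusted p below 0.05 (5.96% of all genes, with 0.015% past the adjusted threshold). Those 9 were the 8 named above, and KNG1. Without the array of cow C, LP had 25 of 40 lower against 49.3% of all genes, a median of −0.03 and 4 members at an unadjusted p below 0.05 (6.18% of all genes), which were CFD, SERPINC1 and CPB2, lower, and F11, higher. The values of the 2 times did not overlap in AP for F9 and VTN (2 of 40, against 4.2% of all genes) or in LP for CFD, PROC and SERPINC1 (3 of 40, against 0.61% of all genes). At 5 cows per group, 54% (AP) and 47% (LP) of genes changed 1.5-fold were recovered in simulated data.

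The diet comparison asks whether the cows on low phosphorus differed while the rations differed, and whether a difference remained on the common ration. Antepartum 0 of 40 members passed, with 0.005% of all genes. At an unadjusted p below 0.05 there were 2 members (2.45% of all genes), CFP and CFD, both higher in LP. C3 and CFB, which share their arm of the cascade, had no such p, and the difference of C3 was −0.0007. CFP had group means of 6.67 ± 0.20 in LP and 6.25 ± 0.14 in AP (SD, n = 5), a difference of 0.42 (SE 0.123, unadjusted p = 0.00245, adjusted p = 1.00, limma), and 5 of 5 LP cows lay above the AP mean. CFD had 9.44 ± 0.22 in LP and 8.93 ± 0.26 in AP (SD, n = 5), a difference of 0.51 (SE 0.152, unadjusted p = 0.00315, adjusted p = 1.00, limma). CFD and F11 were the members whose diets did not overlap antepartum (2 of 40, against 0.55% of all genes). F11 had 10.09 ± 0.06 in LP and 10.32 ± 0.15 in AP (SD, n = 5). By sign 16 of 40 members were lower in LP, against 51.1% of all genes.

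Macrophage markers differed between the diets antepartum in the same direction as CFP and CFD. All 11 measured were higher in LP antepartum, with a median difference of 0.47, and 7 of them at an unadjusted p below 0.05, but 0 passed. Their mean ran from 8.62 to 8.96 over the AP arrays and from 8.65 to 9.42 over the LP arrays, the lowest LP array being that of cow A. The part of these markers in the CFP and CFD values was not tested.

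**Figure D5:**
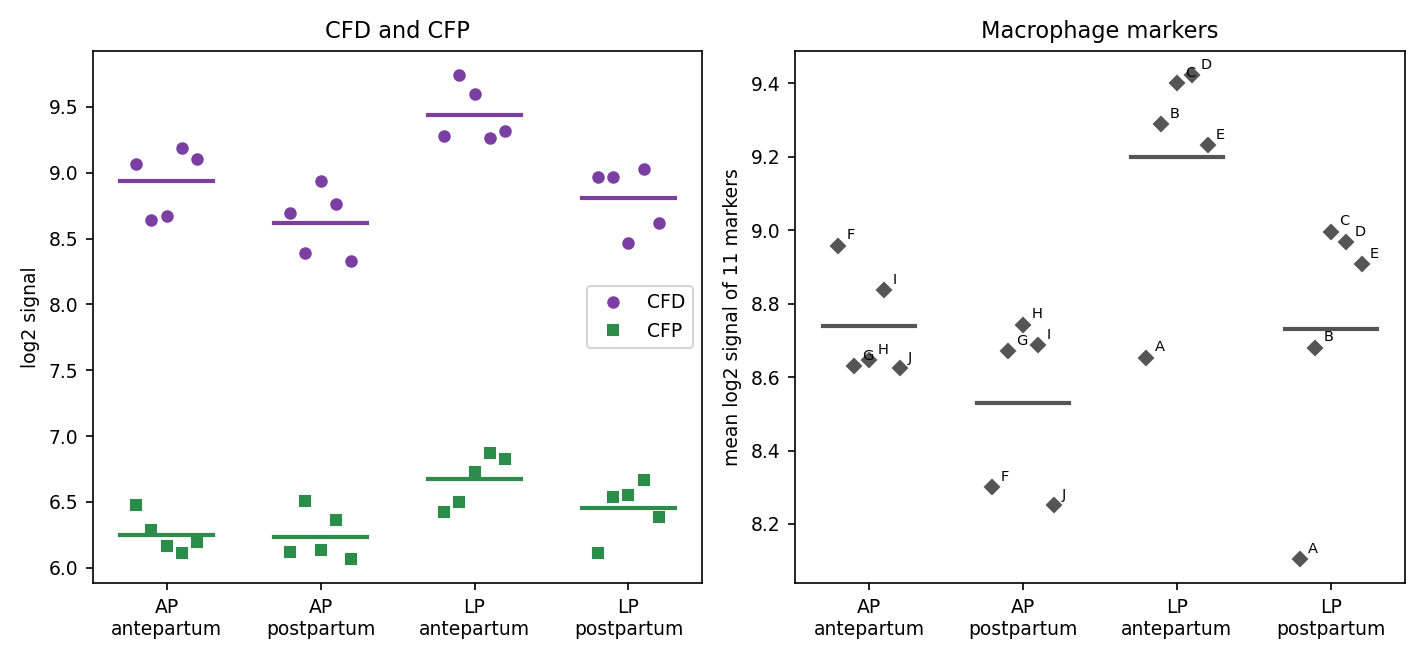
Left, log2 signal of CFD (circles) and CFP (squares), and right, the mean log2 signal of 11 macrophage markers (diamonds, labelled by cow), each with 1 point per array in the 4 groups; lines are group means, and the axes do not start at 0. In the LP antepartum group CFD, CFP and the macrophage markers have the highest means of the 4 groups, 9.44 and 6.67 for the first pair.

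Postpartum, when all cows had the same ration, 0 of 40 members passed and 0 had an unadjusted p below 0.05 (limma; 0.005% and 5.66% of all genes). SERPING1 had the lowest p, with a difference of −0.18 (SE 0.090, adjusted p = 0.812, limma), which was −0.11 without the array of cow C. By sign 37 of 40 were lower in LP, against 49.2% of all genes, the exceptions being CFP, CFD and C7. Without the array of cow C 26 of 40 were lower, against 46.6% of all genes, and the median moved from −0.13 to −0.02. No member was without overlap between the diets postpartum (0.645% of all genes).

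The diet by time interaction asks whether the change across calving differed between the diets. No member passed (0% of all genes) and none had an unadjusted p below 0.05 (limma; 2.79% of all genes). The lowest p was that of C4BPA, with −0.25 (SE 0.154, unadjusted p = 0.121, adjusted p = 1.00, limma). By sign 39 of 40 were negative against 49.8% of all genes, C7 being the exception. Without the array of cow C 25 of 40 were negative, against 47.2% of all genes. In simulated data for the interaction, 69% of genes changed 2-fold were recovered and 15% of those changed 1.5-fold. Over both times, with each cow's arrays averaged, 0 of 40 passed (0.005% of all genes), and 3 had an unadjusted p below 0.05 (3.64% of all genes). These were CFD, higher in LP by 0.35, CFP, higher by 0.32, and F11, lower, with a difference of −0.29.

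The rest of both cascades was taken from lists of genes with receptor, recognition, cofactor or vessel-wall roles. Of 28 other complement genes 23 were measured. Across calving 7 were higher and 16 lower by sign (69.6% lower, against 53.9% of all genes), with a median of −0.05. Of these genes 2 passed, both lower, where 0.8% of all genes passed lower. Clusterin (CLU), a chaperone that also binds the terminal complex, fell by 0.34 (SE 0.0720, adjusted p = 0.0163, limma) and was lower in 10 of 10 cows. C1QC, a chain of the recognition molecule C1q that macrophages make, fell by 0.56 (SE 0.133, adjusted p = 0.034, limma) and was lower in 8 of 10 cows. It is also on the macrophage marker list. All 32 other coagulation and fibrinolysis genes were measured and 0 passed, with 14 higher and 18 lower and a median of −0.01. The share lower was 56.2%, near the 53.9% of all genes. At an unadjusted p below 0.05 there were 3 lower and 1 higher (limma), where 11.9% of all genes had such a p. Without the array of cow C they were 5 lower and 3 higher, against 13.7% of all genes. The lowest p belonged to VKORC1, the vitamin K epoxide reductase that recycles the cofactor of factors II, VII, IX and X, at −0.25 (adjusted p = 0.271, limma), and to PROCR, the endothelial receptor of protein C, at 0.25 (adjusted p = 0.299, limma).

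The spread between cows of a group was smaller for the members than for genes at large. The within-group SD had a median of 0.17 over the 40 members and of 0.22 over all genes. It was 0.048 for FGA, 0.071 for FGB, 0.079 for FGG and 0.095 for C3, and it was widest for KLKB1 at 0.536 and C7 at 0.606. Of the 40 probe sets 20 had a mean above 12, and the dimmest was that of CFP, while the median over all probe sets was 5.97 to 6.14 per array. The members were not set against genes of like brightness, so the part of brightness in their smaller spread was not tested.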

How the data were processed

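Per the labels' protocols, total RNA of each liver sample was labelled with biotin and hybridised to 1 array. The authors deposited a log2 signal per probe set and array, made with SST-RMA per the file headers and with RMA and Affymetrix Expression Console 1.4 per the submitters' processing notes. This puts all arrays on nearly the same distribution (array medians 5.97 to 6.14), which hides any shift common to all genes. They also deposited a log2 ratio of the times with its unadjusted paired p-value, and a rounded value table. For the workbook's coordinates no genome build was found in the labels or headers, and none are printed. RefSeq's table of ARS-UCD2.0 served for names and neighbours only, and 37 members matched by accession and 3 by symbol.

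A gene was a symbol given to a probe set alone (20421 of 24333 probe sets, 20011 genes, brightest probe set per symbol, no filter on dim genes). The 4 group means over 20 arrays were fitted with limma 3.58.1 in R 4.3.3, two-sided, adjusted over all genes. For diet over both times each cow entered as the mean of its arrays. Groups came from the diet and time labels, and cows from the animal number in the sample titles. The same animals were sampled at both times. Residuals of a cow's arrays correlated with a median r of 0.167 (0.072 to 0.312, over 0.1 in 8 of 10 cows), against −0.013 between cows. The number of arrays limits the precision. Correlations over cows used permutation tests with 100000 resamples, two-sided. The code was tested on simulated data. These had independent normal noise for each gene and array, no correlation between a cow's arrays and no array that departed in many genes together. The shares recovered hold for that setting.

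The members, gene lists, marker lists and the rule for named genes were chosen with earlier results of these data known, so lists are described by counts and medians and were given no test. Values on every array are given for members that passed, the 3 of lowest p across calving, the 1 of lowest p per arm and per other comparison, the fibrinogen chains and C3. From the other pathway lists, genes that passed are named, or else the pair of lowest p. PROC, F10, F11, C7, CFB and others are given by counts, ranges or differences. Alternatives were the animal as a block, quantile normalization, median centring, a filter on dim genes, the mean of probe sets, a trended robust variance, array weights, fewer groups in the fit, the title number as a covariate, the rounded table, the authors' paired p-value and leaving out cows or single arrays. Without cow C's postpartum array, the counts by sign and at an unadjusted p were chosen after seeing the data.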

Additional observations from a re-analysis of the deposited data

Results flagged for a closer look

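In each group of 5 arrays, the highest or lowest sample of a member was set against the others, and its gap to the nearest one was divided by the group's range. Different members were read on the same arrays, so these checks are not independent of each other. Of 160 groups tested 17 held a sample beyond the 95% critical value, where chance flags about 1 in 20, or 8. The postpartum LP array of cow C gave 8 of them, all low: C1R at 11.64, MASP1 at 8.65, CFB at 12.56, CFI at 12.08, F2 at 11.11, F7 at 5.94, PROC at 9.22 and PLG at 12.14. This is the array with the highest adipocyte and fibroblast markers, whose part in these values was not tested. The antepartum AP array of cow G gave 4, all low: CFB at 12.75, C6 at 11.73, C9 at 12.76 and F5 at 12.19. On that array 30 of 40 members were below their own mean, with a median deviation of −0.16, and hepatocyte markers averaged 12.09, the lowest of its group. The other 5 were single values. C2 was low in cow H (AP) postpartum at 10.73, C7 low in cow H antepartum at 8.05, and C6 high in cow D (LP) antepartum at 12.20. VTN was low in cow E (LP) antepartum at 12.70, and CPB2 low in cow B (LP) antepartum at 11.39.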

How the results depend on the processing

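With the animal as a block (replicate block), 1 member passed across calving, CFD with an adjusted p of 0.0421 (limma), as without it, and the paired fit changed no other call. No block fit was made for the diet comparisons, where each cow has 1 diet, and a fit of only the groups compared is the full fit for time over both diets and the interaction. Members passing across calving numbered 0 to 1 when each cow was left out in turn. The count was 0 without the antepartum array of cow F and 0 with the authors' paired p-value. CFD kept its call in 15 of 22 alternatives, with adjusted p from 0.0153 to 0.138. It lost the call without cow C (0.0528), E (0.0753), F (0.0849), I (0.0794) or J (0.103). It kept the call without cow A, B, D, G or H, where as many arrays were left. Members passing within a diet, between diets or for the interaction remained 0 in every alternative run. The median of the members across calving ran from −0.11 to 0.008. Some differences near 0 changed sign. MASP1 ran from −0.21 to 0.0064 over the cows left out, and the positive value was without cow C. FGB was −0.0022 with the title number as covariate and ran from −0.012 to 0.015 over the cows left out. FGG was −0.0032 with array weights, −0.0058 with the title number and −0.0035 without the antepartum array of cow F, and ran from −0.021 to 0.021 over the cows left out. Members at an unadjusted p below 0.05 in AP numbered 0, but 1 after quantile normalization, 6 with only the groups compared and 5 when cow C's postpartum array was omitted. Without that array they numbered 4 in LP, against 9, and genes passing across calving numbered 546, against 140 higher and 160 lower with that array.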
